A study of Mus musculus with 6 samples.

Results

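Peg10, Sgce, Mest, Peg3, Nnat, Snrpn, Ndn, Plagl1, Impact and Zdbf2 are imprinted mouse genes transcribed mainly from the chromosome inherited from the father. They were given by name, and each was read from the brightest probe set that the platform annotation assigns to its symbol alone. Of the 10 genes, 9 had such a probe set, 1 each, among 19938 genes measured. They lie in 8 separate loci on 6 chromosomes. Snrpn has only a probe set listed for both Snurf and Snrpn, and it is therefore outside every count of expression below. Its promoter window is counted.

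The study measured total RNA of mouse iPSCs, that is, fibroblasts reprogrammed into induced pluripotent stem cells, on 6 Affymetrix gene arrays, 3 labelled naive and 3 labelled primed. Naive cells were kept in medium with 15% fetal bovine serum and 1000 U/ml of leukaemia inhibitory factor. Primed cells were kept in medium conditioned by mouse embryonic fibroblasts with 8 ng/ml of basic FGF, on feeders or matrigel. By their titles the naive cells came from embryonic fibroblasts and the primed cells from adult dermal fibroblasts, while the source label names embryonic fibroblasts throughout. If the titles hold, the culture state cannot be told apart from the origin of the line. No genotype, strain or clone is given, and what the labelled biological replicates repeat is not stated. A p-value here therefore reflects only how these samples vary, which may be technical. The design text names published profiles as the comparison; those were not used here, and primed cells were compared with naive cells.

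Many imprinted genes, though not all, depend on a methylation mark, set in the egg or the sperm, at a control region. It decides which parental copy is transcribed. The mark is held through the genome-wide loss of methylation in the early embryo by zinc finger proteins such as ZFP57 with the TRIM28 co-repressor. Paternally expressed genes act in growth of the fetus and placenta and in the brain, and imprints of cultured pluripotent cells are known to be unstable. An array measures the RNA of both parental copies together, so the values below say nothing of which copy was read. They come from bulk cultures, in which fewer cells of a type and less RNA per cell cannot be told apart.

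Levels are the deposited log2 values from RMA, the robust multi-array average, and differences are primed minus naive on that scale, so that a negative difference is a lower level in primed cells. A gene passed the threshold where the p of limma's moderated test, adjusted by Benjamini-Hochberg across every gene measured, was under 0.05. Array medians over all probe sets lay between 7.77 and 7.83, and Pearson's r over genes was 0.998 to 0.999 for arrays of a group and 0.980 between groups. Odorant and pheromone receptor genes, 1190 in number and silent in most tissues, set the background of each array at their 95th percentile, 6.96 to 7.03. A gene was taken to be in background in a group where all 3 arrays lay under their cutoff. The pluripotency markers above background in both groups numbered 8 of 10, among them Pou5f1 (means 12.59 naive, 11.53 primed) and Sox2 (12.42 and 11.90), while Zfp42, a marker of naive cells, was in background in both groups and Dppa5a in primed cells.

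The start sites of 3 of these genes show how they differ in sequence. Promoter windows of GRCm38.p6 were taken from RefSeq, the 250 bases before the start, for the 7 genes the table holds. Plagl1 and Mest were lower and Nnat was higher in primed cells. Capitals mark TGCCGC or its reverse complement GCGGCA, the hexamer that ZFP57 binds when its CpG is methylated.
Plagl1, chr10:13090582-13090831, plus strand: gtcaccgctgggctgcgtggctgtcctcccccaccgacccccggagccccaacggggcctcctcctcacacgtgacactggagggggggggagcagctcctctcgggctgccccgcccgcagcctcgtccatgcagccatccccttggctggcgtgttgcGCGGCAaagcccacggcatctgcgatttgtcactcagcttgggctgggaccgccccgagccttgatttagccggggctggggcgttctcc
Mest, chr6:30737800-30738049, plus strand: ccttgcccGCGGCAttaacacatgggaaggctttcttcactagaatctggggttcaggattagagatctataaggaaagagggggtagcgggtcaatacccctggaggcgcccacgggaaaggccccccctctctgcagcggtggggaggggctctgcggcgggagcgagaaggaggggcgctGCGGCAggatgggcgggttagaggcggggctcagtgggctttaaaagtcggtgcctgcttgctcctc
Nnat, chr2:157559828-157560077, plus strand: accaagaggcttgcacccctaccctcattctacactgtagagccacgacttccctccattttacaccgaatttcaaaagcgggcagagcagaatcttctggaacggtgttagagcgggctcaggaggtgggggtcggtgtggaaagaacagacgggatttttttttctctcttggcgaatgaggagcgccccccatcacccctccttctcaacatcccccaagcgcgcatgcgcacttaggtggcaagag
The Plagl1 window holds 1 hexamer and the Mest window 2, and the Nnat window holds 0. Among all 32851 windows of the same length in the table, 8.68% hold at least 1 and 0.874% hold 2 or more, counting both strands. The windows of Peg3, Ndn, Zdbf2 and Snrpn hold 0, although Peg3, Ndn and Zdbf2 were also lower in primed cells. Plagl1 and Mest are the only 2 of the 7 with the hexamer, so the windows shown do not stand for all 7. CpG dinucleotides numbered 19 in the Plagl1 window, 14 in that of Mest, 12 in that of Nnat, 26 in that of Zdbf2, 8 in that of Peg3, 5 in that of Ndn and 4 in that of Snrpn. The median over all windows was 6, with 5 of the 7 above it and Ndn and Snrpn below it. Where a member had several windows (Mest 3, Snrpn 4, Zdbf2 2), the one with most CpG was taken. The shares and the median over all windows had no such choice. It favours CpG, and the hexamer holds a CpG, so neither comparison is like for like for those genes. A match says only that these letters are there, and a window with 0 says nothing of the rest of the locus.

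The paternally expressed genes were mostly lower in primed cells. Of the 9 measured, 8 were lower in primed cells and 1, Nnat, was higher, each past the threshold. Over all genes tested 44.5% passed it, 22.7% with the higher level in naive and 21.8% with the higher level in primed cells. The median difference was -0.79 over the 9 genes, against -0.0015 over all genes. The members were chosen with earlier results of these data known, so these contrasts with all genes only describe them. The 2 groups of arrays did not overlap for any of the 9, against 52.9% of all genes (27% with naive the higher group). No measured member lay in background in either group, while the shares over all genes include dim genes. With genes under the 40th percentile of mean level left out, 4070 were still called higher in naive and 3797 in primed cells. Over all genes these counts were 4529 and 4347. Most of the brighter genes thus passed the threshold, a share well above 44.5%, and 9 of 9 is to be read beside that. Shares of non-overlap and of 2-fold differences were not computed for the brighter genes alone. Differences of at least 2-fold were seen for 3 of the 8, Peg10, Plagl1 and Peg3, and for Nnat, where 1.84% and 1.71% of all genes were past the threshold and differed as much toward naive and primed cells respectively.

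**Figure D1:**
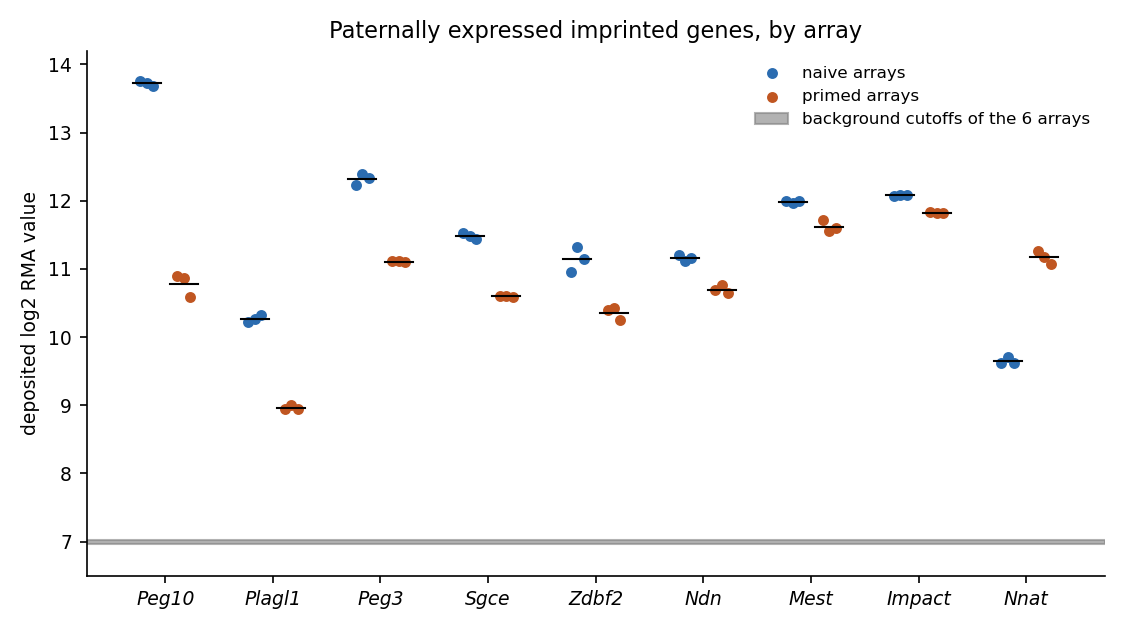
Deposited log2 RMA value (vertical axis) of the 9 measured genes on each of the 3 naive (blue) and 3 primed (orange) arrays, with a black line at each group mean and a grey band for the background cutoffs of 6.96 to 7.03. In every gene the 3 blue and 3 orange points are separate, and Nnat alone has the orange points on top.

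Peg10 and Sgce lie side by side on chromosome 6 and start next to each other in opposite directions. Peg10, a gene derived from a retrotransposon and needed to build the placenta, read 13.75, 13.72 and 13.69 on naive arrays 1 to 3 and 10.90, 10.87 and 10.58 on primed arrays 1 to 3. The third primed array was the lowest of them, and the gap between the groups, 2.79, was far wider than the spread within either. The difference was -2.94 (SE 0.08, adjusted p = 3.1e-10), a 7.66-fold lower level in primed cells. Sgce encodes epsilon-sarcoglycan, a membrane protein of the dystrophin-associated complex. It read 11.53, 11.49 and 11.44 in naive and 10.60, 10.60 and 10.59 in primed cells. Its difference was -0.89 (SE 0.05, adjusted p = 9.2e-08), with primed arrays that spanned only 0.01. Peg10 therefore fell by more than its neighbour, with a difference of differences of -2.05. The within-array difference of these genes separated the groups completely, with an exact two-sided permutation p of 0.10, the smallest that 3 arrays against 3 can give (2 such pairs were compared, each with that p).

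Of the maternally expressed genes of that locus 1 of 4 passed the threshold. Calcr, the calcitonin receptor gene, was lower in primed cells (8.86 ± 0.06 naive and 8.17 ± 0.05 primed, SD, n = 3; difference -0.69). Ppp1r9a, for the actin-binding protein neurabin, differed by 0.12 (adjusted p = 0.22), Asb4 by 0.03 and Tfpi2 by 0.09, and none of these 3 passed in limma; Tfpi2 was in background in both groups. Among the 10 nearest measured genes, 5 on each side, 4 were lower in primed cells, 1 was higher and 5 did not pass. The lowest of them was Pon2, a lactonase gene, at -0.87.

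Mest is also on chromosome 6, in a locus of its own, and encodes a hydrolase-like protein abundant in embryonic mesoderm. It read 11.99, 11.96 and 11.99 in naive and 11.71, 11.55 and 11.60 in primed cells. The groups were apart by 0.25, a little more than the spread of 0.16 among primed arrays. The difference was -0.36 (SE 0.06, adjusted p = 0.00026). Copg2, a coat protein gene whose transcript runs toward Mest from the other side and which is maternally expressed in some tissues, was higher in primed cells (11.76 ± 0.03, against 10.79 ± 0.06 in naive cells, SD, n = 3), with a difference of 0.97 (SE 0.05, adjusted p = 7.4e-08). Klf14, a maternally expressed transcription factor gene farther along, differed by 0.10 and did not pass (adjusted p = 0.16). Copg2 was the only one of the 10 nearest genes past the threshold, and 7 of the 10 were in background in both groups.

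Peg3, on chromosome 7, encodes a large zinc finger protein that binds DNA. It read 12.24, 12.39 and 12.33 in naive and 11.11, 11.11 and 11.10 in primed cells. The primed arrays spanned 0.01 and lay 1.12 under the lowest naive array. The difference was -1.21 (SE 0.05, adjusted p = 1.6e-08). Its paternally expressed neighbour Usp29, a ubiquitin protease gene, was in background in both groups (6.51 and 6.48). The maternally expressed Zim1, a zinc finger gene, had a naive mean of 6.97 and a primed mean of 6.76, in background in primed cells. In naive cells only replicate 2 lay above its cutoff (7.03 against 6.98), so Zim1 was close to background there too. Zim1 was called lower in primed cells (-0.21, adjusted p = 0.019). That call was lost when naive replicate 2 was left out (adjusted p = 0.073) and when primed replicate 1 was (adjusted p = 0.063). Of the 10 nearest genes 2 were lower, 1 was higher and 7 did not pass, and the highest difference among them was 0.23.

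The Snrpn to Ndn domain, farther along chromosome 7, is the one lost in Prader-Willi and Angelman syndromes in humans. Ndn encodes necdin, a MAGE family protein that holds back cell division in neurons. It read 11.20, 11.11 and 11.15 in naive and 10.68, 10.76 and 10.64 in primed cells, a difference of -0.46 (SE 0.05, adjusted p = 3.1e-05). Its next measured neighbour Magel2, another paternally expressed MAGE gene, differed more. It read 9.40, 9.66 and 9.77 in naive and 8.49, 8.29 and 8.24 in primed cells, a difference of -1.27 (SE 0.09, adjusted p = 6.9e-07). The paternally expressed genes beyond it did not share this direction. Peg12, a gene of the Frat family that acts in Wnt signalling, was higher in primed cells (0.27, adjusted p = 0.0028). Mkrn3, a ubiquitin ligase gene that restrains the onset of puberty, differed by 0.16 and did not pass (adjusted p = 0.073). It did pass when naive replicate 3 (0.21, adjusted p = 0.034) or primed replicate 2 (0.21, adjusted p = 0.031) was left out, and after shifting arrays to a common median (adjusted p = 0.046) or quantile normalization (adjusted p = 0.039).

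On the other side of the domain Atp10a, a phospholipid flippase gene maternally expressed in some tissues, had a mean of 9.69 ± 0.03 in naive and 8.52 ± 0.13 in primed cells (SD, n = 3; difference -1.17). The receptor subunit gene Gabra5 beside it differed by -0.82. Of the 10 measured genes nearest to Ndn, 3 were lower in primed cells (Magel2, Atp10a and Gabra5) and 3 were higher. Of the higher genes Peg12 is imprinted, while Chrna7 (0.67) and Otud7a (0.49) lie beyond it. The probe set listed for both Snurf and Snrpn, 2 proteins made from a shared transcript, read 12.67, 12.61 and 12.69 on naive and 11.61, 11.61 and 11.43 on primed arrays. In a fit of 23410 probe sets with those of several symbols included, it differed by -1.11 (SE 0.06, limma adjusted p = 2.0e-07). This value cannot be assigned to either gene. Ube3a was not analysed here.

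Nnat was the only measured member with the higher level in primed cells. It encodes neuronatin, a small protein of the endoplasmic reticulum membrane found in developing brain and endocrine cells, and lies on chromosome 2 within an intron of Blcap. It read 9.62, 9.70 and 9.62 in naive and 11.26, 11.18 and 11.07 in primed cells. The lowest primed array was 1.37 above the highest naive array. The difference was 1.52 (SE 0.06, adjusted p = 5.5e-09), a 2.87-fold higher level in primed cells. Blcap, maternally expressed in brain, was also higher, from 8.54 ± 0.06 to 8.82 ± 0.08 (SD, n = 3), a difference of 0.28 (adjusted p = 0.0018). Nnat exceeded Blcap's rise by 1.24, again with complete separation of the arrays (exact two-sided permutation p = 0.10, the smallest possible). The 10 genes nearest to Nnat, Blcap among them, included 5 higher in primed cells, 2 lower and 3 not past. Their differences lay between -0.35 and 0.34, and 1 of the 10 was in background in both groups. Over all genes, dim ones included, 21.8% were higher in primed cells and 22.7% lower. Among the 5 higher genes were Tti1 (0.34), a subunit of the complex that stabilises large kinases such as mTOR, and Rpn2 (0.29), an oligosaccharyltransferase subunit.

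Plagl1, on chromosome 10, encodes the zinc finger transcription factor Zac1, which stops growth and regulates other imprinted genes. It read 10.22, 10.26 and 10.32 in naive and 8.94, 9.01 and 8.94 in primed cells. The difference was -1.30 (SE 0.05, adjusted p = 6.6e-09), the second largest fall among the members after Peg10. Of its 10 nearest genes 4 were lower, 2 higher and 4 not past, with differences from -0.63 for Ltv1, a ribosome assembly factor gene, to 0.79 for Fuca2, a fucosidase gene. Plagl1 fell by more than any of them.

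Zdbf2, on chromosome 1, encodes a zinc finger protein that acts in the hypothalamus on feeding of the newborn. It had the widest spread of the members among naive arrays, though not among primed arrays. It read 10.95, 11.33 and 11.15 in naive and 10.39, 10.42 and 10.24 in primed cells. The groups were still apart by 0.53, and the difference was -0.79 (SE 0.09, adjusted p = 1.8e-05). Gpr1, a receptor gene next to it that is paternally expressed in placenta, was called lower (-0.32) within background in both groups. Adam23, on the other side, was higher in primed cells (0.34). Of the 10 nearest genes 4 were lower and 1 was higher.

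Impact, on chromosome 18, encodes a protein that keeps the kinase Gcn2 from being switched on by Gcn1 when amino acids run short. It read 12.07, 12.09 and 12.08 in naive and 11.83, 11.82 and 11.82 in primed cells. The fall of 0.26 was the smallest of the members (SE 0.05, adjusted p = 0.00092), yet the groups were apart by 0.25 and the primed arrays spanned 0.01. Its stretch was mixed, with 4 of 10 nearest genes lower, 4 higher and 2 not past. Zfp521, a zinc finger gene that promotes neural fate, had the largest difference of all these neighbours, from 7.71 to 9.12 (1.41).

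**Figure D2:**
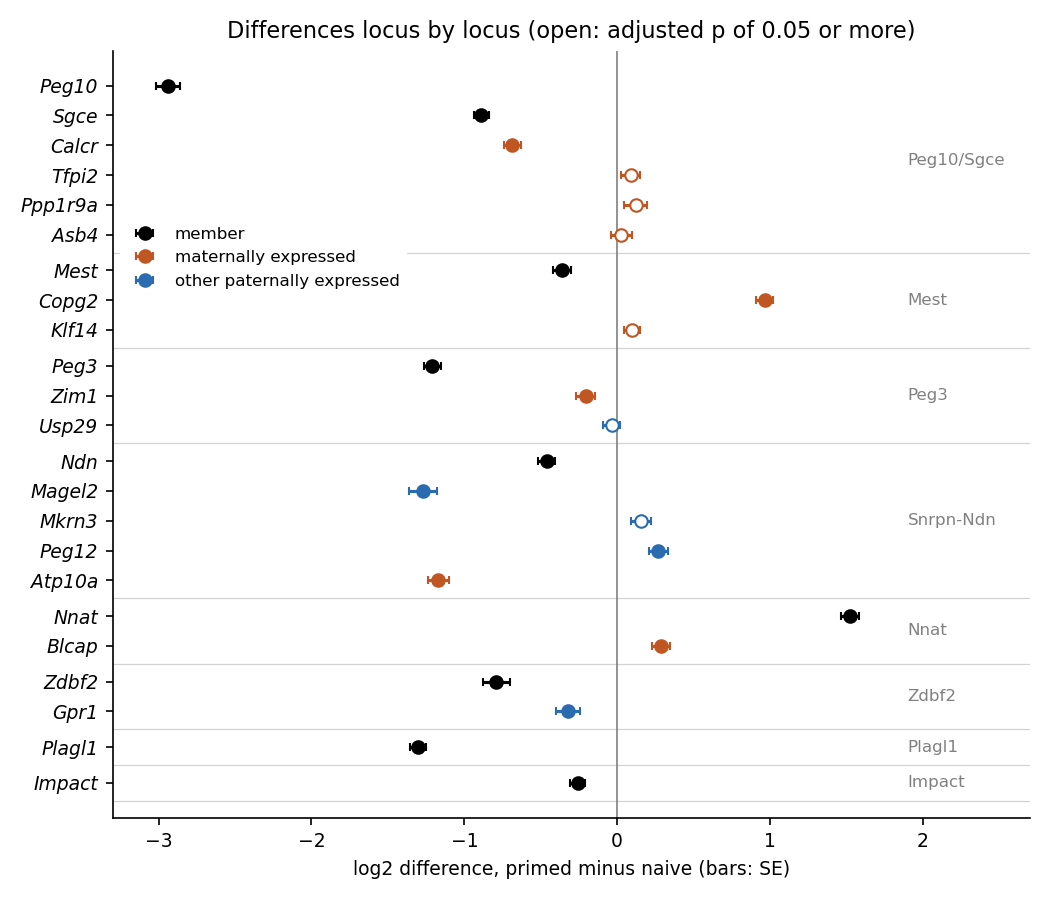
Log2 difference, primed minus naive (horizontal axis, bars SE, 3 arrays a group), of the members (black) and of the other paternally (blue) and maternally expressed genes (orange) of their loci; open points did not pass the threshold. Peg10 at -2.94 and Nnat at 1.52 are the ends, and the Peg10/Sgce, Mest and Snrpn-Ndn loci have points on both sides of 0.

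The genes around the 8 loci passed in shares near those of all genes, somewhat higher toward naive cells. Of 80 neighbours, 23 were lower in primed cells (28.8%), 18 were higher (22.5%) and 39 did not pass, and their median difference was -0.04. In background in both groups were 23 of the 80. The share higher in primed cells was thus close to the 21.8% of all genes, and the share lower was somewhat above their 22.7%. The neighbours include imprinted partners named above, among them Magel2, Atp10a and Copg2, so they are not a set free of imprinted genes. Within their own stretch, each of Peg10, Sgce, Plagl1, Peg3, Zdbf2 and Nnat differed by more than all 10 neighbours (Sgce narrowly, at -0.89 against -0.87 for Pon2), and Mest, Ndn and Impact did not.

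**Figure D3:**
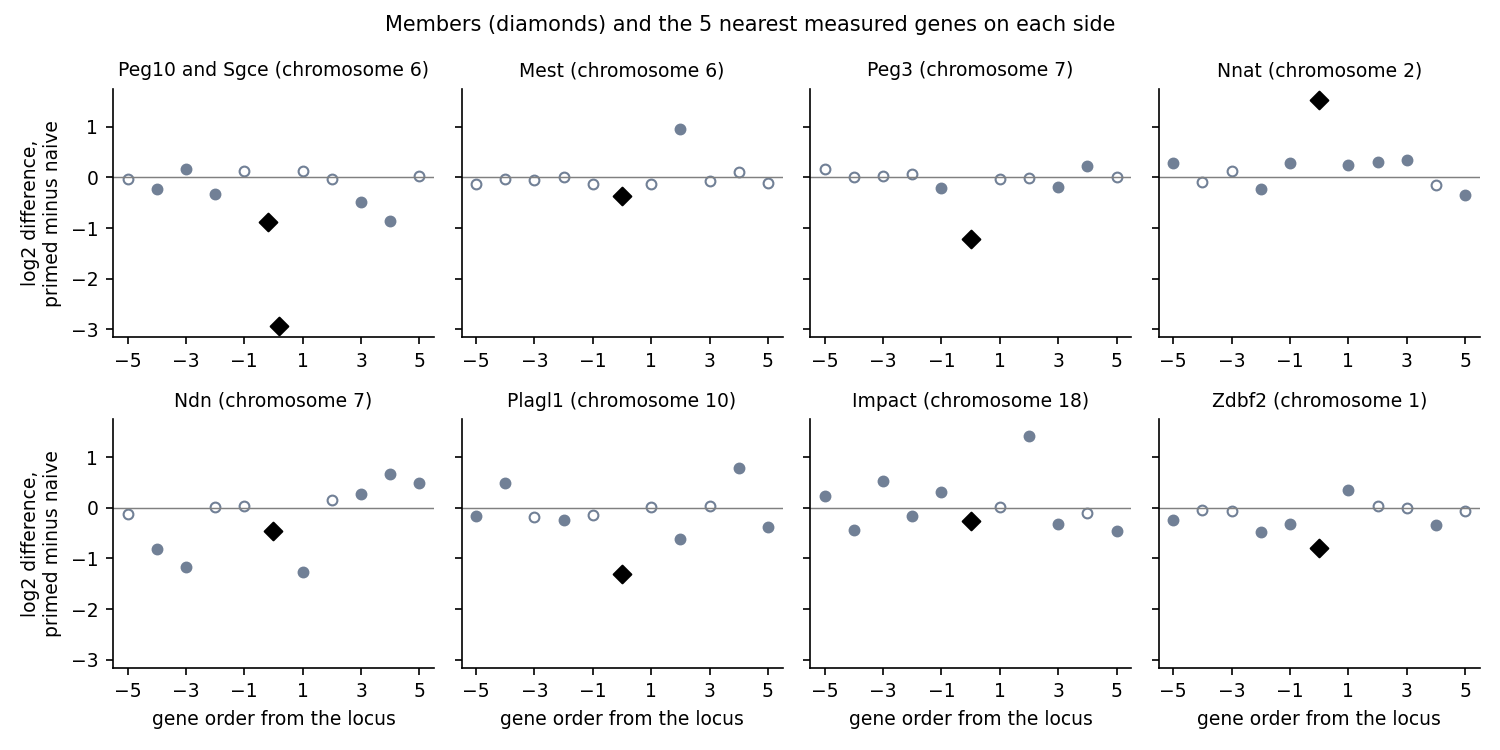
Log2 difference, primed minus naive (vertical axis), of the members (diamonds) and of the 5 nearest measured genes on each side in the gene order of GRCm38.p6 (circles, open where the threshold was not passed). The diamond is the most extreme point at Peg3, Nnat, Plagl1, Zdbf2 and, with Peg10, at the Peg10 and Sgce locus.

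Other imprinted genes went in both directions. The list of other paternally expressed genes at the same loci had 2 of 5 measured genes lower in primed cells, 1 higher and 2 not past (median -0.04). That of maternally expressed genes at these loci had 3 of 9 lower, 2 higher and 4 not past (median 0.09). The count of paternally expressed risers was 2 in place of 1 without naive replicate 3 or without primed replicate 2, where Mkrn3 joined. Among paternally expressed genes elsewhere in the genome 7 of 14 were lower, 1 was higher and 6 did not pass (median -0.20). They were led by Slc38a4, an amino acid transporter gene (-6.13), Sfmbt2, a Polycomb-related gene of the placenta (-2.27), Dlk1, for a Notch-like growth regulator (-1.59), and Smoc1, for a matrix protein (-1.25); Slc38a4 was in background in primed cells. Maternally expressed genes elsewhere went both ways, with 4 of 14 lower, 5 higher and 5 not past (median 0.08). Here Grb10, an adaptor that restrains growth factor signalling (4.68), Cdkn1c, a cell cycle inhibitor (1.07), and Slc22a18, a transporter gene (0.97), were higher, and the long noncoding RNA Rian (-1.61) was lower. The difference between the paternal and the maternal lists was not tested. Which parental copy these cells transcribe was not measured for any of the lists.

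**Figure D4:**
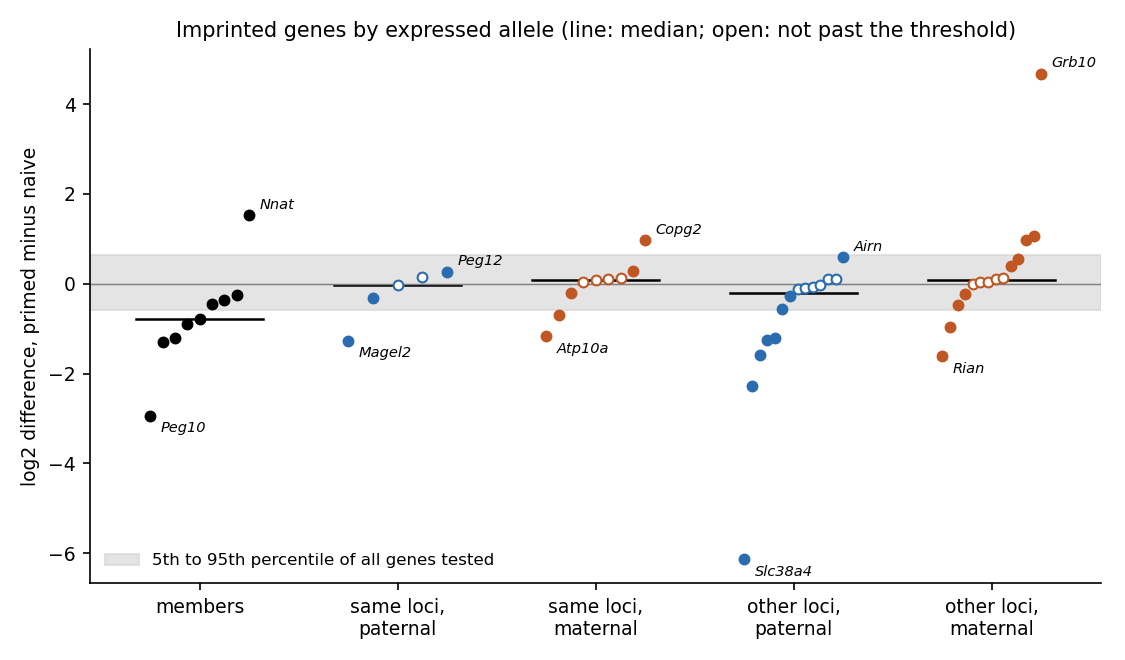
Log2 difference, primed minus naive (vertical axis), of each measured gene in 5 lists of imprinted genes, with black lines at the list medians and a grey band from the 5th to the 95th percentile of all genes tested (-0.58 to 0.64). The median of the members is -0.79, below the band, and the other medians lie between -0.20 and 0.09.

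Genes that read or keep imprints also went both ways. Of 15 measured, 6 were lower in primed cells, 4 were higher and 5 did not pass, with a median of 0.01. Zfp57 itself was higher by 0.19 (adjusted p = 0.0096), and its co-repressor Trim28 (-0.34) and the histone methyltransferase gene Setdb1 (-0.29) were lower. The largest difference was that of Dppa3 (-2.81, and -2.39 in its other probe set), which shields methylation in the early embryo and was in background in primed cells. Hells, a chromatin remodeller needed for DNA methylation, differed by -0.49. Dnmt1, the maintenance methyltransferase gene, read 11.95 ± 0.03 and 11.96 ± 0.03 (SD, n = 3; difference 0.01, SE 0.05, adjusted p = 0.91). The count of 4 higher genes was 2 without naive replicate 1 or without primed replicate 1. Of 6 measured genes that set imprints in germ cells or remove methylation, 3 were higher in primed cells, 1 was lower and 2 did not pass. They were Tet2 (0.95) and Tet3 (0.60, and 0.34 in its other probe set), which oxidise methylcytosine, the de novo methyltransferase gene Dnmt3a (0.82), and its cofactor gene Dnmt3l (-3.19), in background in primed cells. Without naive replicate 1 the count of lower genes was 2.

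Genes whose products work with those of the members, or resemble them, were split. Of 13 measured, 3 were lower in primed cells, 4 were higher and 6 did not pass. The other sarcoglycan genes did not go with Sgce: Sgcb (0.78) and Sgca (0.65) were higher in primed cells, and Sgcd and Sgcz were in background in both groups. Dag1, for the dystroglycan that this complex binds, was lower (-0.33). Plag1, a growth-promoting relative of Plagl1, was higher (0.57), and Plagl2 differed by 0.03 (adjusted p = 0.77). Eif2ak4, which encodes the Gcn2 kinase that Impact restrains, was higher (0.48), and Gcn1 differed by 0.01 (adjusted p = 0.94). Maged2, of the MAGE family like Ndn, was lower by the largest margin of the list (-0.91). Rtl1, counted also among the paternally expressed genes elsewhere, was lower too (-0.55). Snrpb, the gene of the SmB protein that SmN of Snrpn replaces in neurons, differed by -0.10 (adjusted p = 0.16).

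Markers of cell types in which several members are abundant also differed between the groups. All 8 trophoblast markers were lower in primed cells (mean level 8.75 to 8.79 naive, 7.69 to 7.74 primed), led by Eomes (-2.20), Krt7 (-1.92), Gata3 (-1.28) and Plac1 (-1.01), with Elf5 in background in primed cells. Primed cells had the higher level of 8 of 11 neural markers, and the other 3 did not pass (mean level 8.32 to 8.36 naive, 8.91 to 9.01 primed). Among these Pax6 (2.29) and Dcx (0.92) were in background in naive cells, and Fabp7 (0.87) and Map2 (0.82) were not. Without naive replicate 1 or without primed replicate 1, 1 neural marker was called lower. Fibroblast markers were mixed, 4 of 12 lower, 2 higher and 6 not past (mean level 7.39 to 7.44 naive, 7.46 to 7.53 primed). Col1a1 (-0.76), Twist1 (-0.49) and Pdgfrb (0.37) were among them, Dcn rose by 2.89, and Lum, Fap and Prrx1 were in background in both groups. Of 10 pluripotency markers, 7 were lower in primed cells and 3 did not pass (mean level 11.05 to 11.15 naive, 10.40 to 10.43 primed). Those lower included Dppa4 (-1.74, and -3.04 in its other probe set), Dppa5a (-1.51, in background in primed cells), Pou5f1 (-1.06) and Tdgf1 (-0.80). The part of any of these in the differences of the imprinted genes was not tested.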

How the data were processed

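Total RNA of 6 mouse iPSC cultures, 3 naive and 3 primed by the cell type label, was measured on Affymetrix gene arrays. The deposited log2 values were made by the authors with RMA in Partek 6.6, per the submitters' processing notes. RMA's options and the genome build: not given in the sources used here. In RMA values the fold changes of dim genes are understated, and 3 arrays a group limit precision.

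Of 35556 probe sets, 21789 had 1 symbol in GEO's platform annotation, 1621 had several (not used, except the one with Snrpn) and 12146 are not named here. Symbols were updated by gene ID through the RefSeq table of GRCm38.p6 (21698 matched), which also gave gene order. The brightest probe set by mean over the arrays stood for each of 19938 genes.

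The test of primed against naive was limma 3.58.1 under R 4.3.3 (lmFit, eBayes, two-sided, no covariates, Benjamini-Hochberg over all genes), which was tested on simulated data. Within-locus pairs used exact permutation (scipy 1.17.1); Snrpn minus Ndn could not be run. Named genes were the members, all measured partners of their loci, the 4 largest differences of each other list and neighbours that differed by at least 1; others were named after their values were seen. Members and lists were chosen with earlier results of these data known. Deviations of arrays with the same replicate number correlated at -0.11, 0.00 and -0.02, so the numbers were not taken as pairs. Alternatives were 2 scalings, a filter at the 40th percentile, array weights, a variance trend with intensity, averaging a gene's probe sets, a replicate block, 2 stricter thresholds and leaving out each array.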

Additional observations from a re-analysis of the deposited data

How the results depend on the processing

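Each of the 9 measured members kept its direction and its call under 13 refits (117 combinations of member and refit), with a highest adjusted p of 0.0049. At an adjusted p under 0.01 the members stayed at 8 and 1, and a 2-fold minimum left 3 and 1. Peg10 ranged from -2.99 to -2.84 and Nnat from 1.48 to 1.57. With the replicate block, 4344 genes were higher in naive cells and 4172 were higher in primed cells, the members stayed at 8 and 1, and no list count changed; the arrays share only a number. Leaving out each array gave 4007 to 4455 and 3926 to 4169 genes. Peg10 minus Sgce ranged from -2.10 to -1.95 and Nnat minus Blcap from 1.19 to 1.28 without each array. The median over all genes moved by at most 0.03 under a scaling.

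Requiring a 2-fold difference left 367 genes higher in naive and 340 in primed cells, and 3 members higher in naive. It left, in naive and primed cells, 1 and 0 paternal and 1 and 0 maternal partners, 0 primed risers among paternal genes elsewhere, 1 and 2 maternal genes elsewhere, 1 and 0 imprint keepers, 0 primed risers among setters and erasers, 0 and 0 family genes, 3 pluripotency, 0 and 1 fibroblast, 1 neural (primed) and 4 trophoblast genes. At an adjusted p under 0.01, 2 keepers were higher in primed cells. Paternal partners higher in primed numbered 2 with a common median or quantile normalization. Those higher in naive numbered 1 without dim genes, since the filter left out Gpr1. Paternal genes elsewhere higher in primed numbered 0 without dim genes, since the filter left out Airn, and 3 with quantile normalization. Array weights or an intensity trend gave 2 setters and erasers and 1 neural marker higher in naive, and 1 neural marker without dim genes. Leaving out each array gave 1 to 2 paternal partners and 2 to 3 keepers higher in primed, and 1 to 2 setters and erasers and 0 to 1 neural markers higher in naive. The cause of the other changes was not tested.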

Other observations

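On the third primed array 8 of the 9 measured members had their lowest primed value, Mest being the exception, while 35.7% of all genes were lowest on that array. In Peg10 the third array read 10.58 against 10.87 and 10.90, and in Zdbf2 10.24 against 10.39 and 10.42. The primed arrays of Peg3, Sgce and Impact nearly coincided, and Plagl1 read 8.942 on the first and 8.941 on the third. For several of the 8 the order thus rests on very small gaps. Nnat shares this order although its level was higher in primed than in naive cells. The pattern was noticed in the values and was not tested.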
